A study of Mus musculus with 4 samples.

Results

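The genes for the subunits of the proteasome were examined in ChIP-seq peak lists for the transcription factor MIZ-1 from splenocytes positive for B220, a surface marker of B lineage cells. The members were the protein-coding genes of the GENCODE basic annotation of mm10 whose symbols begin with Psma to Psmg followed by a number, 50 of 21951 protein-coding genes. The 48 that belong to the proteasome, its activators or its assembly factors were sorted by role into 8 genes for 20S alpha subunits, 7 for constitutive 20S beta subunits, 4 for tissue-restricted catalytic subunits (the immunoproteasome class), 6 for 19S ATPases, 11 for other 19S subunits, 5 for activators or inhibitors and 7 for assembly chaperones. The other 2 names matched by the rule were Psmc3ip, whose product acts in meiotic recombination and is not a subunit, and Psme2b. Neither of these had a peak.

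There were 4 libraries, 1 ChIP and 1 input library for each of 2 genotypes, and the 2 peak lists called on them were analysed. MIZ-1WT cells came from wild-type mice. MIZ-1DPOZ cells came from mice carrying MB1-Cre and the Miz-1 floxPOZ allele, in which a Cre recombinase under the control of the B lineage gene Cd79a (MB1) removes the POZ domain of MIZ-1 and leaves its DNA-binding zinc fingers. The mice were young adults on a C57BL/6 background and the same antibody (H-190) was used for both genotypes. Whether the wild-type mice carried Cre was not stated, and expression of B lineage markers cannot be checked in peak lists. With 1 ChIP library per genotype there is no replicate, so no test between genotypes was made and each difference describes these libraries only.

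The proteasome degrades proteins tagged with ubiquitin. Its 20S core is a barrel of stacked rings, in which alpha subunits form the outer rings and gate the channel and beta subunits form the inner rings, some of them carrying the proteolytic sites. The 19S regulatory particle binds the ubiquitin tag, unfolds the substrate with a ring of ATPases and feeds it into the core. In lymphoid cells and under interferon, the catalytic subunits Psmb8, Psmb9 and Psmb10 replace the constitutive Psmb5, Psmb6 and Psmb7, in this order, to give the immunoproteasome, which shapes the peptides shown on MHC class I. In mammals, constitutive subunit genes respond together to the transcription factor NFE2L1. MIZ-1 (Zbtb17) is a zinc finger protein whose POZ domain mediates its association with itself and with other proteins.

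Sequences are shown for 2 promoters with a peak in both lists and for 5 summits in introns near the start, where many summits of these genes lay. They are written 5′ to 3′ on the strand of the gene, in the build GRCm38.p6. The first 2 are the 250 bases before the RefSeq start, from RefSeq, with CCAAT boxes (CCAAT or its complement ATTGG) in capitals. The Psma1 stretch (chr7:114276117-114276366, minus strand) reaches into its peak in both lists, and the Psma7 stretch (chr2:180042465-180042714, minus strand) lies between the 2 peaks that each list held around its start.
Psma1: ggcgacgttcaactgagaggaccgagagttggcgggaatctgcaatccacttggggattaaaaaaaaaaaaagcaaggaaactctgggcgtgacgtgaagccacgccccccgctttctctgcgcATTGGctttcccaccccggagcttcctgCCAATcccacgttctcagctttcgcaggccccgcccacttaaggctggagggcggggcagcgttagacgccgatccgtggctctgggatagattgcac
Psma7: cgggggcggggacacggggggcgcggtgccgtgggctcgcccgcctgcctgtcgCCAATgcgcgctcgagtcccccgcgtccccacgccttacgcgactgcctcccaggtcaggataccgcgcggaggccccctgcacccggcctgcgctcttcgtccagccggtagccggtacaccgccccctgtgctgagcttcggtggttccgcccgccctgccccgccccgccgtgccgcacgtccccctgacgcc
The other 5 are the 101 bases around MIZ-1DPOZ summits in introns, with each CG dinucleotide in capitals. They are Psmd11 (chr11:80428959-80429059, plus strand), where both lists held a peak, and Psma3 (chr12:70974821-70974921, plus strand), Psmb4 (chr3:94886691-94886791, minus strand), Psmb5 (chr14:54617681-54617781, minus strand) and Psmd6 (chr14:14120623-14120723, minus strand), where the MIZ-1DPOZ list alone held one.
Psmd11: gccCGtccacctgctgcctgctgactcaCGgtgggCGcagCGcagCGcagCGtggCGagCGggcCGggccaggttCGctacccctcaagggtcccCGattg
Psma3: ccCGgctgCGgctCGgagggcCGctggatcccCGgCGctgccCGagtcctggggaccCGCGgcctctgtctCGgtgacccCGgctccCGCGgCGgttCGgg
Psmb4: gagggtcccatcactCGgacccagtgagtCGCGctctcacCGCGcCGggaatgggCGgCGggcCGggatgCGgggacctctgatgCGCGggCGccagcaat
Psmb5: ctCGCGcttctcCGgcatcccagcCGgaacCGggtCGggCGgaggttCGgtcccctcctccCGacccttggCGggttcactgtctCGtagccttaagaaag
Psmd6: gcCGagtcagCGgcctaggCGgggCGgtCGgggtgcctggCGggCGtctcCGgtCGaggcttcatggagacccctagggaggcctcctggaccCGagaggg
These 5 summit sequences held between 10 and 15 CG dinucleotides each, with a GC content between 66.3% and 80.2%.

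To ask which proteasome genes MIZ-1 occupied at their promoters, a gene was counted when a peak overlapped the window from 2000 bp before to 1000 bp after one of its transcript starts. In the MIZ-1WT list 10 of the 50 genes (20%) had a promoter peak, beside 30.9% of all protein-coding genes. For MIZ-1DPOZ 23 (46%) had one, beside 48.7% of all. Both lists held a promoter peak at 9 genes (all protein-coding genes, 26.6%). These 9 were 90% of the proteasome genes marked for MIZ-1WT and 39.1% of those marked for MIZ-1DPOZ, beside 86.3% and 54.7% over all marked genes. MIZ-1WT alone had one at 1 of the 50 genes, Psma4, beside 4.23% of all protein-coding genes. MIZ-1DPOZ alone had one at 14 of the 50, beside 22% of all. The share of proteasome genes was thus below that of all genes for MIZ-1WT and near it for MIZ-1DPOZ. The first gap closed with a fold enrichment of at least 5, at which 9 genes (18%) had a MIZ-1WT promoter peak, beside 17.2% of all. When the lists were brought to equal numbers of peaks by keeping the MIZ-1DPOZ peaks with the largest −log10 q, 13 genes (26%) had a MIZ-1DPOZ promoter peak, beside 25.3% of all. With each peak counted only for the nearest start of any gene, 18 genes (36%) had a MIZ-1DPOZ promoter peak, beside 44.8% of all. The genes lost were Psmb1, Psmb9, Psmc2, Psme2 and Psmg2. The MIZ-1DPOZ share thus rested in part on peaks nearer to the start of another gene.

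**Figure D1:**
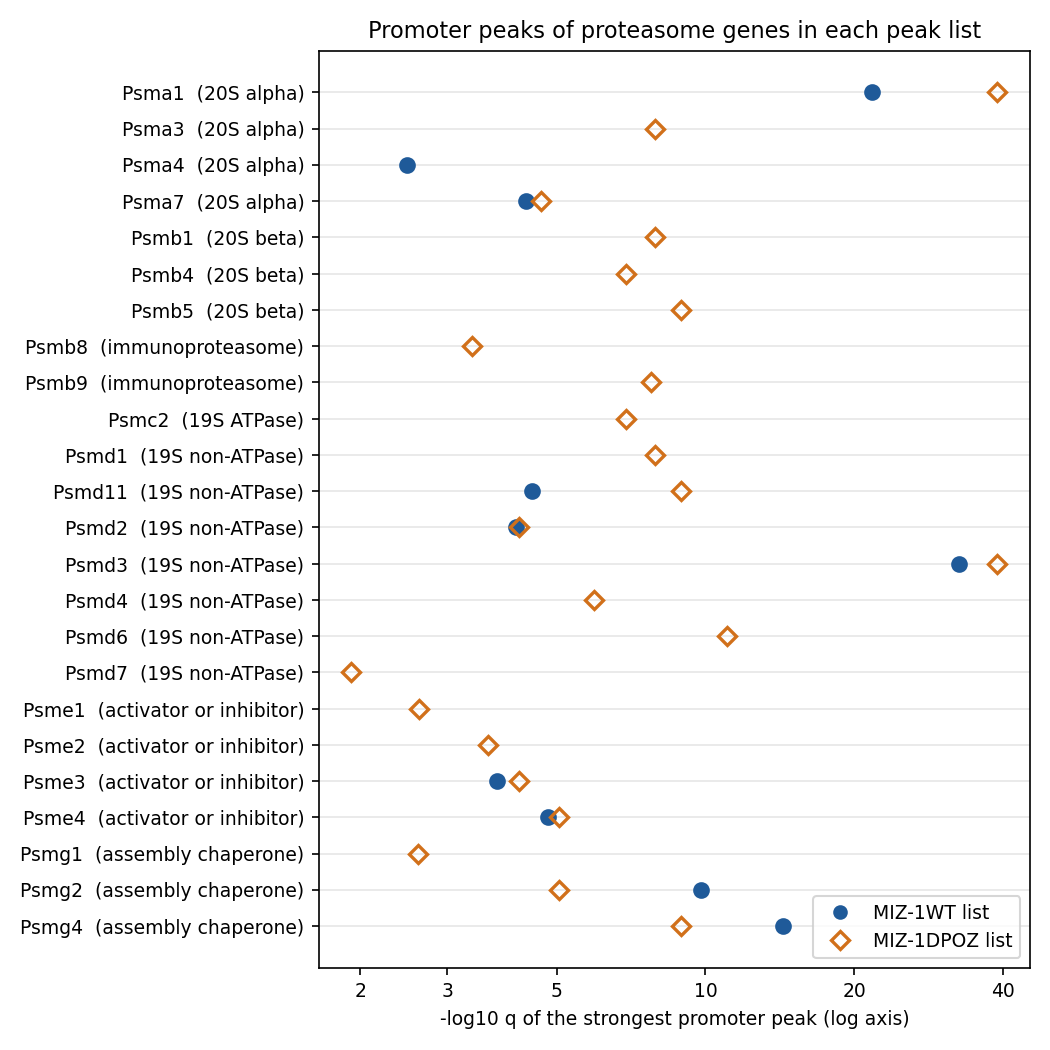
Strongest promoter peak of each of the 24 proteasome genes with a promoter peak in either list, grouped by role. The horizontal log axis gives the −log10 q of the peak, with filled circles for MIZ-1WT and open diamonds for MIZ-1DPOZ; Psma1 and Psmd3 lie to the right of all others in both lists.

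For each peak the lists give the fold enrichment over the local background at the summit, and the summit pileup, the number of fragments over the summit, was solved from it and the deposited −log10 p. The MIZ-1DPOZ ChIP library was 1.34 times deeper than the MIZ-1WT library by this route. Most peaks rested on few fragments, with a median pileup of 9 over the 34209 MIZ-1WT peaks and 12 over the 78357 MIZ-1DPOZ peaks. Among the proteasome genes, the strongest promoter peak per gene had a median fold enrichment of 5.57 in the MIZ-1WT list (95% interval 5.06 to 12.2, 10 genes), beside 5.26 over all 6777 protein-coding genes with a peak. For MIZ-1DPOZ the median was 5.96 (4.68 to 6.39, 23 genes), beside 5.48 over 10684 genes. In both lists the interval for the proteasome genes covered the median of all genes. These intervals reflect the spread over genes within 1 library, not between replicates, and no conclusion was drawn from them. With peaks under a −log10 q of 5 left out, 4 genes stayed for MIZ-1WT, with a median of 11.1. Fold enrichment and q both depend on the pileup, so this cutoff by itself raises the median. No median of all genes at this cutoff is given beside it.

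Of the 8 genes for alpha subunits, 3 (37.5%) had a promoter peak in each list and 2 had one in both. Of all protein-coding genes, 30.9% had one for MIZ-1WT and 48.7% for MIZ-1DPOZ. Psma1, an outer ring subunit, held the strongest peak of the class. Its MIZ-1WT peak (chr7:114275832-114276272) had a fold enrichment of 12.2 and a pileup of 26, with the summit 43 bp after the start in the UTR. Its MIZ-1DPOZ peak (chr7:114275910-114276298) had a fold enrichment of 17.03 and a pileup of 39, with the summit 18 bp before the start. By −log10 q (21.7 and 39.0), 1.55% of the genes bound in the MIZ-1WT list and 0.505% of those bound in the MIZ-1DPOZ list ranked at or above Psma1. The summits of both lists thus lay at the start itself, at the edge of the promoter sequence shown above.

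Psma7, the alpha subunit gene named in the study, had 2 weaker peaks in each list, one on each side of its start. In the MIZ-1WT list one peak (chr2:180041917-180042112) had its summit 422 bp after the start in an intron, with a fold enrichment of 4.94 and a pileup of 10. The other (chr2:180042921-180043151) had its summit 584 bp before the start, with a fold enrichment of 5.18 and a pileup of 11. In the MIZ-1DPOZ list the intron peak (chr2:180041999-180042281) had its summit 258 bp after the start, with a fold enrichment of 4.82 and a pileup of 11, and the upstream peak (chr2:180043001-180043444) had its summit 913 bp before the start, with a fold enrichment of 4.42 and a pileup of 10. Each of these peaks overlapped its counterpart in the other list. The gene Ss18l1 starts nearby, and the 2 upstream summits lay 508 bp (MIZ-1WT) and 837 bp (MIZ-1DPOZ) from its start, nearer than to that of Psma7. None of the 4 peaks covered the promoter sequence shown above.

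The remaining alpha subunit peaks were found in 1 list each. Psma4 was the 1 gene with a promoter peak for MIZ-1WT alone, with a fold enrichment of 4.30, a pileup of 7 and a summit 85 bp after the start, 123 bp from that of the neighbouring gene AY074887. Psma3 had a MIZ-1DPOZ peak alone, with a fold enrichment of 6.39, a pileup of 14 and a summit 188 bp after the start in an intron. Psma2, Psma5, Psma6 and the testis subunit gene Psma8 had no promoter peak.

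For the constitutive beta subunits, no gene had a MIZ-1WT promoter peak and 3 of 7 had a MIZ-1DPOZ promoter peak. Psmb5, which carries the chymotrypsin-like site, had the strongest of these, with a fold enrichment of 6.81, a pileup of 15 and a summit 277 bp after the start. The MIZ-1DPOZ peak of Psmb4 had a fold enrichment of 5.96 and a pileup of 13, with its summit 220 bp after the start. That of Psmb1 had a fold enrichment of 6.39 and a pileup of 14, but its summit lay 340 bp before the start of Psmb1 and 131 bp from that of Tbp, which encodes the TATA-binding protein. The genes for the other catalytic subunits, Psmb6 and Psmb7, and the genes Psmb2 and Psmb3 had no promoter peak in either list. Over the 15 genes for alpha and constitutive beta subunits together, the testis gene Psma8 included, MIZ-1WT marked 3 (20%) and MIZ-1DPOZ 6 (40%). Of all protein-coding genes, 30.9% and 48.7% were marked.

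Of the immunoproteasome class, no gene had a MIZ-1WT promoter peak and 2 of 4 (50%) had a MIZ-1DPOZ promoter peak. Of all protein-coding genes, 30.9% and 48.7% had one, and with 4 genes no conclusion was drawn. Psmb8 had a peak (chr17:34198551-34198723) with a fold enrichment of 4.26 and a pileup of 9, its summit 800 bp after the start in an intron. Psmb9 had 2 peaks. The stronger (chr17:34187839-34188138) had a fold enrichment of 6.29 and a pileup of 14, its summit 244 bp before the start of Psmb9. That summit lay 206 bp after the nearest start of Tap1, in a coding exon of Tap1. Tap1 encodes a subunit of the peptide transporter and is transcribed divergently from Psmb9. The weaker peak (chr17:34187213-34187385) had a fold enrichment of 3.75 and a pileup of 8. Its summit lay 473 bp after the start of Psmb9 in a coding exon and 262 bp before the nearest start of Tap1. Both peaks thus lay in the promoter windows of both genes. Psmb10 and the thymus subunit gene Psmb11 had no peak of any kind in either list.

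Of the 17 genes of the 19S regulatory particle, 3 (17.6%) had a MIZ-1WT promoter peak and 8 (47.1%) a MIZ-1DPOZ promoter peak. The shares over all protein-coding genes were 30.9% and 48.7%. Of the 6 ATPase genes, none had a MIZ-1WT promoter peak and 1, Psmc2, had a MIZ-1DPOZ promoter peak, with a fold enrichment of 5.96 and a pileup of 13. Its summit lay 256 bp before the start and 157 bp from the start of Dnajc2, a ribosome-associated chaperone gene. Psmc1, Psmc3, Psmc4, Psmc5 and Psmc6 had none. Of the 11 genes for other 19S subunits, 3 had a MIZ-1WT promoter peak and 7 a MIZ-1DPOZ promoter peak, the 3 being among the 7. These classes are small, and the difference between them was not tested.

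Psmd3, a subunit of the 19S lid, had the highest promoter summits of all proteasome genes. Its MIZ-1WT peak (chr11:98682469-98682681) had a fold enrichment of 15.2, a pileup of 35 and a −log10 q of 32.6, with the summit 13 bp after the start. Its MIZ-1DPOZ peak (chr11:98682412-98682805) had a fold enrichment of 14.5, a pileup of 45 and a −log10 q of 39.0, with the summit 5 bp after the start. Of the bound genes, 1.25% (MIZ-1WT) and 0.515% (MIZ-1DPOZ) ranked at or above it. Psmd3 and Psma1 were thus alike in having their highest pileup within 43 bp of the start in both lists.

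The other 19S genes in both lists had lower peaks. Psmd11, a lid subunit, had a fold enrichment of 5.44 (pileup 10) in the MIZ-1WT list and 6.81 (pileup 15) in the MIZ-1DPOZ list, with summits 413 and 384 bp after the start in an intron. Psmd2, a subunit of the base, had a fold enrichment of 5.38 (pileup 9) and 4.68 (pileup 10), with summits 44 and 118 bp after the start. In the MIZ-1DPOZ list alone, Psmd6 had the strongest peak, with a fold enrichment of 7.67, a pileup of 17 and a summit 311 bp after the start. Psmd1, which encodes a large subunit of the base, had a fold enrichment of 6.39 (pileup 14), and the ubiquitin receptor gene Psmd4 one of 5.54 (pileup 12). Psmd7 had the weakest promoter peak of all, with a fold enrichment of 3.41, a pileup of 7 and a −log10 q of 1.92. All 4 of these summits lay in introns, between 140 and 366 bp after the start. Psmd8, Psmd12, Psmd13 and Psmd14, the last encoding the deubiquitinase of the lid, had no promoter peak.

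Activators open the core without the 19S particle. Of the 5 genes for activators and inhibitors, 2 (40%) had a MIZ-1WT promoter peak and 4 (80%) a MIZ-1DPOZ promoter peak. The shares over all protein-coding genes were 30.9% and 48.7%, and the difference was not tested in this small class. Psme4, which encodes the activator PA200, had 2 MIZ-1WT peaks with fold enrichments of 5.69 (pileup 10) and 4.52 (pileup 8), and 1 MIZ-1DPOZ peak with a fold enrichment of 5.11 (pileup 11). Psme3, which encodes the nuclear activator PA28 gamma, had a fold enrichment of 5.06 (pileup 9) in the MIZ-1WT list and 4.68 (pileup 10) in the MIZ-1DPOZ list. The interferon-inducible pair Psme1 and Psme2 had MIZ-1DPOZ peaks alone, with fold enrichments of 3.71 (pileup 9) and 4.27 (pileup 10). The Psme1 summit lay in a coding exon, 2 bp after the nearest of the 2 starts of the gene. The Psme2 summit lay 692 bp before the nearest start of Psme2 and 85 bp from that of Rnf31. Rnf31 encodes a ubiquitin ligase of the linear chain complex. Psmf1, the gene for the regulator PI31, had none.

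Assembly chaperones bring the subunits together and are not part of the finished particle. Of 7 such genes, 2 (28.6%) had a MIZ-1WT promoter peak and 3 (42.9%) a MIZ-1DPOZ promoter peak, beside 30.9% and 48.7% of all protein-coding genes. Psmg4, a chaperone of the 20S core, had a fold enrichment of 9.97 (pileup 19) in the MIZ-1WT list and 6.35 (pileup 17) in the MIZ-1DPOZ list, with summits 83 and 44 bp after the start. Psmg2, another 20S chaperone, had 2 MIZ-1WT peaks with fold enrichments of 8.15 (pileup 15) and 6.58 (pileup 12) and 1 MIZ-1DPOZ peak with a fold enrichment of 5.11 (pileup 11). The stronger MIZ-1WT peak and the MIZ-1DPOZ peak of Psmg2 overlapped, and their summits lay nearer to the start of Cep76 (263 and 313 bp) than to that of Psmg2 (526 and 576 bp). Psmg1 had a MIZ-1DPOZ peak alone, with a fold enrichment of 3.83 and a pileup of 8. Psmg3 and the chaperones of the 19S base, Psmd5, Psmd9 and Psmd10, had no promoter peak.

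**Figure D2:**
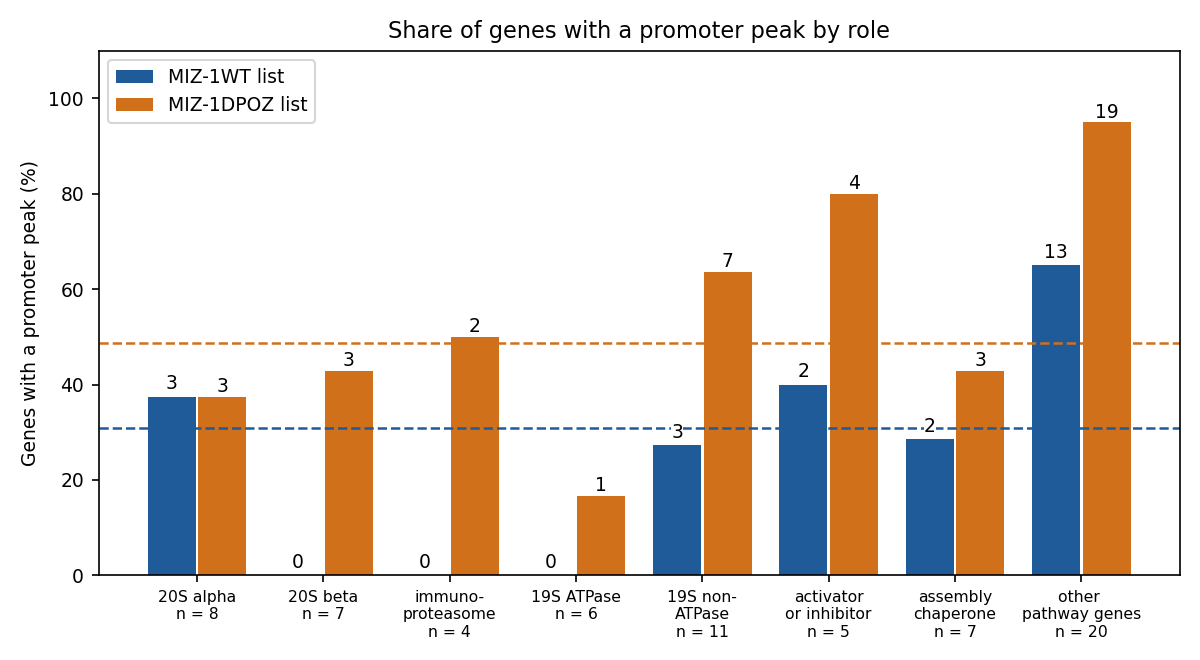
Share of genes with a promoter peak in each role class and among 20 other genes of the pathway, in percent; blue bars stand for the MIZ-1WT list and orange bars for the MIZ-1DPOZ list. Numbers above the bars count genes and dashed lines mark all protein-coding genes (30.9% and 48.7%); no beta, immunoproteasome or ATPase gene has a bar for MIZ-1WT.

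Whether the height of binding differed was examined at the 9 genes with a promoter peak in both lists, by the ratio of the MIZ-1DPOZ to the MIZ-1WT pileup at the strongest peak, scaled for depth. The ratio was highest for Psma1 (1.12, 95% interval 0.664 to 1.91) and Psmd11 (1.12, 0.470 to 2.78) and lowest for Psmg2 (0.547, 0.227 to 1.27). It was 0.667 (0.326 to 1.36) for Psmg4, 0.746 (0.293 to 1.90) for Psma7, whose strongest peaks lay on different sides of the start, and 0.959 (0.603 to 1.54) for Psmd3. Psmd2 and Psme3 both had a ratio of 0.829 (0.303 to 2.30), and Psme4 one of 0.820 (0.316 to 2.15). All 9 intervals included 1, and 2.45% of the 5848 protein-coding genes with a peak in both lists had an interval off 1. The intervals cover counting error only. The median was 0.829, beside 1.08 over the 5848 genes, and 7 of the 9 ratios were below 1, beside 42.1% of all. A scaling multiplies every ratio by the same factor, so the number below 1 moves with it. Without any scaling 2 of the 9 ratios were below 1, beside 10.7% of all, and when scaled by the most frequent background all 9 were, beside 60.2%.

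**Figure D3:**
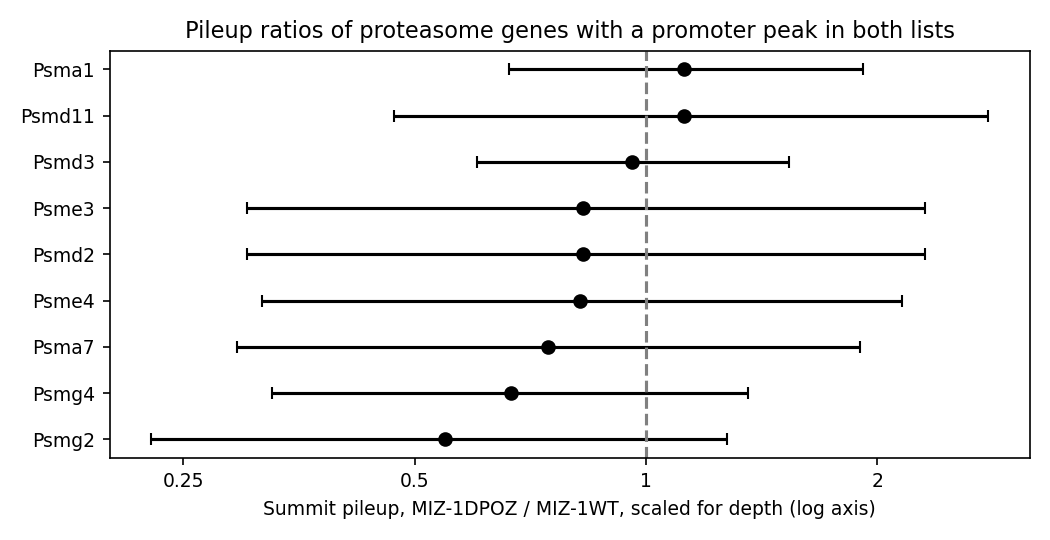
Ratio of the MIZ-1DPOZ to the MIZ-1WT summit pileup, scaled for depth, for the 9 proteasome genes with a promoter peak in both lists. The horizontal axis is logarithmic, points are ratios, bars are 95% intervals for counting error and the dashed line marks 1, which every bar crosses.

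At the 14 genes that had a promoter peak for MIZ-1DPOZ alone, the pileup of that peak was between 7 and 17 fragments, with a median of 13. The 9 genes in both lists had MIZ-1DPOZ pileups between 10 and 45, with a median of 11. The 2 ranges overlapped, and those above 17 fragments were Psma1 and Psmd3.

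Summits lay mostly inside the genes. In the MIZ-1WT list 10 of 13 promoter summits (76.9%) were after the nearest start, beside 63.2% over all protein-coding genes, and for MIZ-1DPOZ 18 of 25 (72.0%), beside 65.5%. Between 100 and 500 bp after the start lay 4 MIZ-1WT summits (30.8%; all genes, 37.4%) and 14 MIZ-1DPOZ summits (56.0%; all genes, 39.1%). The median distance from the start regardless of side was 166 bp and 256 bp, beside 204 bp and 238 bp over all genes. With peaks under a −log10 q of 5 left out, the MIZ-1WT distance was 83 bp. By annotation, 6 MIZ-1WT summits lay in a UTR, 3 in an intron, 1 in a coding exon and 3 outside the gene. Of the MIZ-1DPOZ summits, 3 lay in a UTR, 11 in an intron, 4 in a coding exon and 7 outside the gene. The 7 summits that lay nearer to the start of another gene in the MIZ-1DPOZ list, and the 2 in the MIZ-1WT list, were those described above at Psma7, Psmb1, Psmb9, Psmc2, Psme2 and Psmg2, and a peak in such a shared region cannot be given to one gene from position alone. None of the promoter peaks had over 50% repeat bases around its summit.

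**Figure D4:**
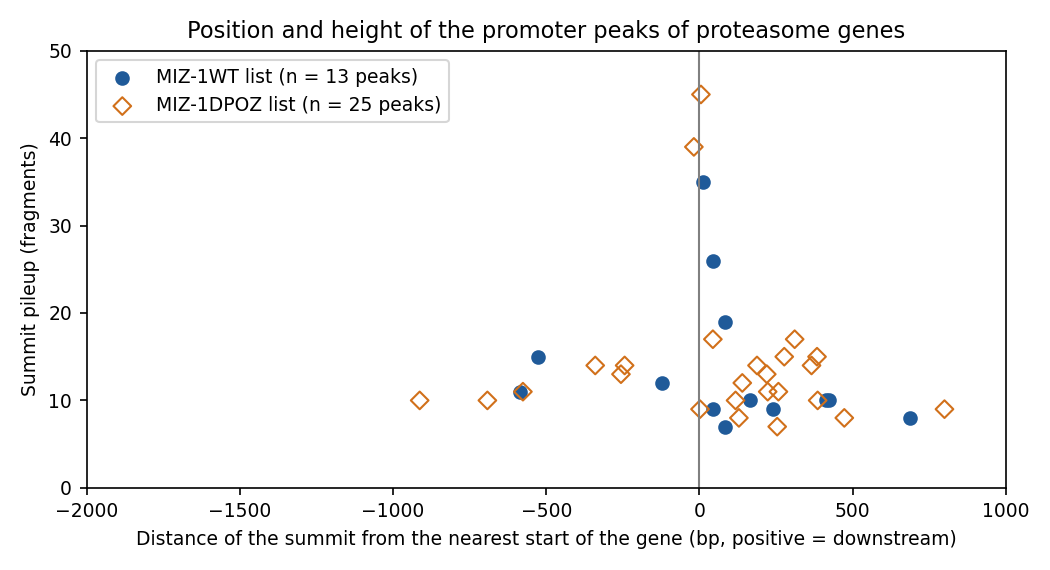
Position and height of the 13 MIZ-1WT and 25 MIZ-1DPOZ promoter peaks of proteasome genes. The horizontal axis gives the distance of the summit from the nearest start of the gene in bp, positive downstream, and the vertical axis the summit pileup in fragments; the highest summits, those of Psma1 and Psmd3, stand at the start.

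Gene bodies were searched outside the promoter windows. In the MIZ-1WT list 6 of the 50 proteasome genes had such peaks, beside 24.2% of all protein-coding genes. Of their 8 peaks 7 lay in repeats, beside 60.6% of the body peaks of all protein-coding genes. For MIZ-1DPOZ 14 of the 50 genes (all, 42.7%) had 26 body peaks, 11 of them in repeats (all, 46.6%). A longer gene body leaves more room for a peak, and the genes were not matched for length. Both lists held body peaks at 4 genes (all, 20.6%), namely Psma8, Psmb1, Psmd5 and Psmd9. Body peaks in the promoter window of another gene were kept. The MIZ-1WT summit in Psmd9 lay 44278 bp before the start, in the promoter window of Hpd. This peak overlapped no MIZ-1DPOZ peak. Some MIZ-1DPOZ body peaks of Psmd9 also lay in the window of Hpd, and a MIZ-1DPOZ body peak of Psmd5 lay in that of Cutal. The highest body peak lay in Psma8, with a pileup of 21 for MIZ-1WT and 63 for MIZ-1DPOZ, and its summit was wholly repeat sequence. The treatment of reads that map to several places was not stated. No peak in promoter or body was found at 16 of the 50 genes (32%), near the 30.5% of all protein-coding genes.

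The promoters themselves were compared with those of other genes in the RefSeq sequences from 250 bases before to 50 after the start, which were found for 42 members. No sequence was found for Psma8, Psmb1, Psmb2, Psmb7, Psmc3, Psmd3, Psmd7 and Psmg2. A promoter was called CpG-rich at a GC content of at least 50% and a ratio of observed to expected CG dinucleotides of at least 0.6. By this measure 28 of the 42 (66.7%) were CpG-rich, beside 47.4% of all genes. Of these 28 genes, 8 (28.6%) had a MIZ-1WT promoter peak, beside 49.4% of all CpG-rich genes. In the MIZ-1DPOZ list 12 (42.9%) had one, beside 70.5%. Of the 14 members whose promoter was not CpG-rich, none had a MIZ-1WT peak, beside 15.5% of all genes of that class, and 7 had a MIZ-1DPOZ peak, beside 30.2%. Within CpG-rich promoters the share of proteasome genes was thus lower than that of all genes in both lists, and outside them this held for MIZ-1WT only, in few genes.

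The number of starts bears on these shares, since each start adds a window. Proteasome genes had a median of 1 start, beside 2 over all genes. Of the 29 proteasome genes with 1 start, 6 (20.7%) had a MIZ-1WT promoter peak, beside 26.7% of all genes with 1 start, and 12 (41.4%) had a MIZ-1DPOZ promoter peak, beside 44.5%. The part of either property in the shares was not tested.

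Short motifs were counted on both strands of the same 42 sequences. The motif CCGGAAG, a site of ETS factors, was found in 14 (33.3%), beside 12.3% of all promoters and 20.3% of CpG-rich ones. The motif of nuclear respiratory factor 1, GCGC and TGCGC separated by 1 base of any kind, was found in 7 (16.7%), beside 6.85% and 13.3%. CCAAT boxes were found in 15 (35.7%), beside 38.7%, and the E-box CACGTG in 4 (9.52%), beside 8.11%. The core of the antioxidant response element, TGACNNNGC, to which NFE2L1 binds, was found in 6 (14.3%), beside 13.3%, namely Psmb5, Psmb6, Psmc6, Psmd9, Psmd12 and Psme4. Of these 6 genes, 1 had a MIZ-1WT promoter peak (all genes with the core, 35.8%) and 2 had a MIZ-1DPOZ promoter peak (53.2%). Of the 14 with the ETS motif, 4 had a MIZ-1WT promoter peak (all genes with the motif, 35.1%) and 8 a MIZ-1DPOZ promoter peak (55.8%). A match is a description of the letters, not of a bound site.

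The 20 other genes of the pathway, a list of further subunits, shuttles, deubiquitinases, maturation factors and regulators, were counted in the same way. For MIZ-1WT 13 of 20 (65%) had a promoter peak, beside 30.9% of all protein-coding genes. For MIZ-1DPOZ 19 (95%) had one, beside 48.7%, the exception being Tap2, the partner of Tap1. The Tap1 peaks were those already counted for Psmb9, and the Uchl5 summits of both lists lay nearer to the start of Trove2. No count with the nearest start only is given for these 20 genes. The 20 genes had a median of 2 starts, and of the 15 with a promoter sequence 13 were CpG-rich. Of all CpG-rich genes, 49.4% had a MIZ-1WT promoter peak and 70.5% a MIZ-1DPOZ promoter peak. Of the 9 pathway genes with 1 start, 7 had a MIZ-1WT peak (all genes with 1 start, 26.7%) and 8 a MIZ-1DPOZ peak (44.5%). The difference between this list and the proteasome genes was not tested.

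Among them, Nfe2l1, the transcription factor of the subunit genes, had a promoter peak in both lists, with pileups of 10 (MIZ-1WT) and 12 (MIZ-1DPOZ). So did Ddi2, whose product cleaves and activates NFE2L1 (11 and 15), the 19S ubiquitin receptor gene Adrm1 (7 and 9) and the small 19S subunit gene Sem1 (7 and 14). Pomp, the maturation factor of the core, had a MIZ-1DPOZ peak alone (pileup 10). Ube3c encodes a ubiquitin ligase that acts on the proteasome. It was the one gene of the 13 in both lists whose ratio had an interval off 1. Of the 5848 protein-coding genes with a peak in both lists, 2.45% had such an interval. The Ube3c pileup was 28 for MIZ-1WT (fold enrichment 13.2) and 10 for MIZ-1DPOZ (4.68). The ratio was 0.266 (95% interval 0.115 to 0.565) scaled for depth and 0.357 without scaling. This interval covers counting error only, with 1 ChIP library per genotype, and Ube3c was chosen after its values were seen. The Ube3c peaks of both lists overlapped.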

How the data were processed

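Per the labels, MIZ-1 ChIP and input libraries of B220+ splenocytes from 2 genotypes were sequenced as read pairs. The authors called narrow peaks for each genotype against its input on mm10. The submitters' processing notes name Bowtie2 2.2.6 and MACS2 2.1.0, while the study's methods name bwa and another MACS2 release. The q cutoff and duplicate handling were not given in the sources used here. Input libraries and reads were not analysed here. The deposited lists give per peak the fold enrichment, a ratio, and the −log10 p and −log10 q, used as deposited. The lowest deposited −log10 q was 1.03 (MIZ-1WT) and 1.01 (MIZ-1DPOZ).

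Promoter windows ran from 2000 bp before to 1000 bp after each GENCODE start and needed 1 bp of overlap. Coordinates are 1-based. Pileups were solved as whole numbers from fold and −log10 p under MACS2's formulas, within 0.01 of the deposited −log10 p for at least 99.97% of peaks. On simulated data 100% of 1980 were recovered. The simulated scores were made with the same formulas, so this recovery checks the solving only. Depth was the most frequent background divided by the smallest peak width, taken as the fragment length. Medians carry order-statistic intervals, and pileup ratios exact binomial intervals with the depth ratio held fixed. Repeats were soft-masked bases in 201 bp around the summit.

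Genes named were Psma7, Psmb8, Psmb9, Psmb10, the strongest genes per role and list, those in 1 list only, those with body peaks in both lists and those with none. The remaining genes with promoter peaks, named to complete each role, and the pathway genes named were chosen after their values were seen. Members, roles and lists were chosen with earlier results of these data known. Alternatives were stricter q and fold cutoffs, equal list lengths, other windows and starts, repeat filtering, other scalings and other gene backgrounds. Computations ran in Python 3.11.15 (pandas 2.3.3, numpy 2.4.6, scipy 1.17.1, matplotlib 3.10.9).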

Additional observations from a re-analysis of the deposited data

How the results depend on the processing

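With a −log10 q of at least 5, the members with a promoter peak numbered 4 for MIZ-1WT, 15 for MIZ-1DPOZ, 4 for both and 0 for MIZ-1WT alone. The shares were then 8% and 30%, beside 9.77% and 33.3% of all protein-coding genes. For MIZ-1WT the median fold enrichment then moved from 5.57 to 11.1 and the median summit distance from 166 to 83 bp, both within wide intervals. The q cutoff by itself raises the median fold enrichment. With a fold enrichment of at least 5 there were 15 for MIZ-1DPOZ, 3 for MIZ-1WT alone and 9 for MIZ-1DPOZ alone, and the MIZ-1WT share (18%) was above that of all genes (17.2%). With equal numbers of peaks there were 13 for MIZ-1DPOZ, 4 for both, 6 for MIZ-1WT alone and 9 for MIZ-1DPOZ alone. When a peak counted only for the nearest start of any gene, 18 genes were marked for MIZ-1DPOZ, 8 for both, 2 for MIZ-1WT alone and 10 for MIZ-1DPOZ alone. The shares were then 20% for MIZ-1WT and 36% for MIZ-1DPOZ, beside 27.9% and 44.8% of all genes. Members with body peaks fell from 6 to 2, 2 and 1 in the MIZ-1WT list (q, fold, non-repeat summits) and from 14 to 8, 8 and 6 in the MIZ-1DPOZ list (q, fold, equal numbers). The share of all genes rose from 30.9% and 48.7% to 49.4% and 70.5% for CpG-rich promoters, was 26.7% and 44.5% for genes with 1 start, and 47.0% and 69.2% for genes with both properties. The backgrounds with 1 start, and leaving out Psmc3ip and Psme2b, were chosen after seeing the data. With these medians, 60 values for the comparisons and all 27 ratios of single genes stayed within 1.5 times the count, the interval of the median or the interval of the ratio. For the ratios this does not measure stability. The other scalings moved each ratio by less than its interval spanned. Taking only peaks that overlap each other changed the ratio of Psma7 alone. No paired analysis was possible because there was only 1 ChIP library of either genotype, and no library could be left out for the same reason. Pileups of 7 to 17 fragments limit what can be seen at most of these genes, and the depth ratio rests on the smallest peak width being the fragment length.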
